A study of Sus scrofa with 20 samples.

Results

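Gene expression in the heart was compared between 5 female pigs subjected to repeated brief coronary occlusion (RCO) and 5 sham-operated female pigs (control). These 10 arrays were taken by their labels from a series of 20 arrays, 1 per animal, and were measured on a 1-colour porcine oligonucleotide array. For RCO the series design gives 2 cycles of 10 min coronary artery occlusion and 10 min reperfusion, given 6 times at intervals of 12 h. The sample labels give 6 episodes of 10 min occlusion 12 h apart, so the number of occlusions per session differs between the sources. Of the other arrays, 5 came from SWOP animals, which received the 2 cycles once and were sampled after 24 h of reperfusion. The remaining 5 came from RCS animals, which underwent 90 min of coronary stenosis with low flow 6 times, 12 h apart. No other treatment is described for any group. The labels read here do not state the strain or age of the animals, the region of the heart that was sampled, or the time from the last episode to sampling in RCO and RCS.

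Brief, non-lethal occlusion of a coronary artery is known to make the heart more resistant to a later, longer occlusion, a response called preconditioning. Its late phase, the second window of preconditioning, appears about a day after the stimulus and depends on new gene expression. Stunned myocardium, which contracts poorly although it is alive and perfused, is a known sequel of brief occlusions, and repeated episodes are used as a model of viable but dysfunctional heart muscle. Heat shock proteins refold or clear damaged proteins. Heart muscle at rest takes most of its energy from the oxidation of fatty acids, and it turns toward glucose when oxygen or fat oxidation is limited.

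The values were log2 signals, so a difference of 1 is a 2-fold change. Of 23999 probe sets tested with limma, 564 (2.35%) passed the threshold of 0.05 on the adjusted p. In RCO 321 of these were higher and 243 were lower. Each gene was represented by its brightest probe set. Of 6765 genes, 521 passed (percent called 7.7), 378 higher (5.59%) and 143 lower (2.11%), and the median difference of all genes was 0.01. The counts of the gene lists below are to be read beside these shares. After quantile normalization 301 were higher and 189 lower, so the share of higher genes among those that passed was 72.6% as deposited and 61.4% after it. Among probe sets the split turned, with 322 higher and 345 lower after it. The share of higher probe sets was 56.9% as deposited and 48.3% after it. Of the 521 genes, 381 had all 5 RCO arrays beyond all 5 control arrays. Among all genes, 5.81% had every RCO array above and 2.71% every RCO array below the control arrays. At least 1.5-fold differences were seen in 237 higher and 55 lower genes, and at least 2-fold differences in 101 higher and 11 lower genes. No sequence was at hand for the probe sets, and 219 of the probe sets that passed carried no gene symbol.

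**Figure D1:**
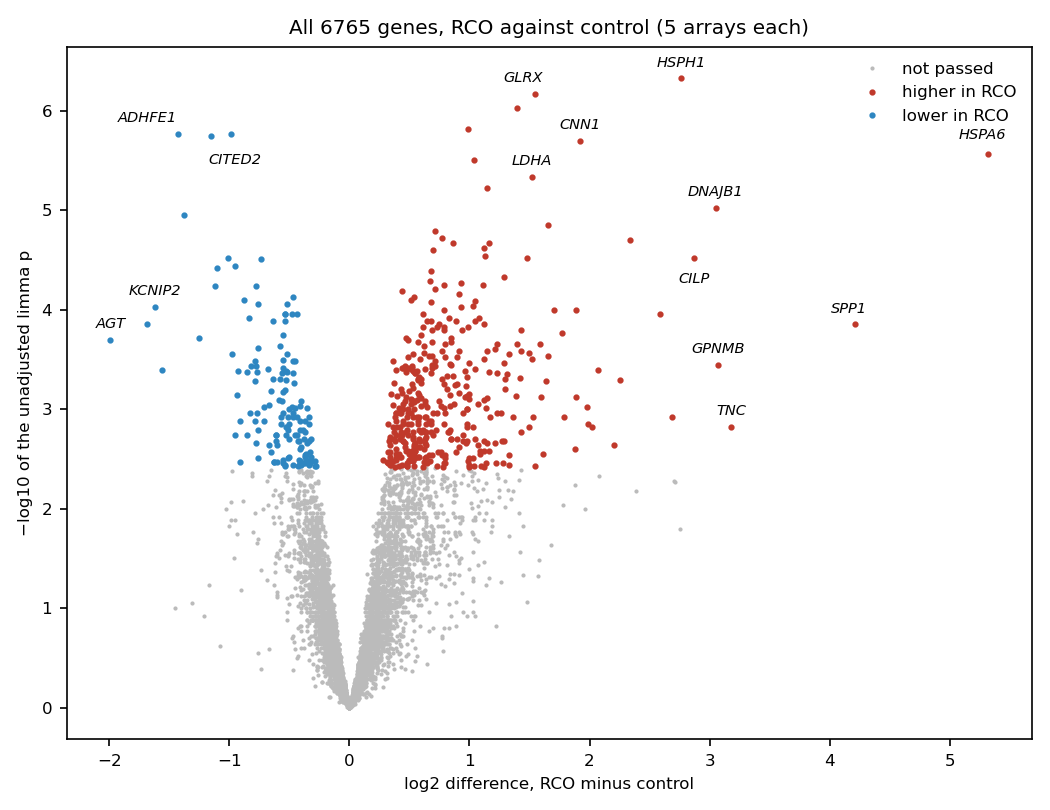
Difference between RCO and control for 6765 genes (x axis, log2) against the unadjusted limma p (y axis, −log10), 5 arrays in each group. Red points passed the adjusted p as higher in RCO (378 genes) and blue points as lower (143 genes). HSPA6 lies farthest to the right at 5.32 and AGT farthest to the left at −1.99.

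The RCO arrays varied more than the control arrays. The median SD of a probe set was 0.218 in RCO and 0.143 in control. Correlations between arrays lay between 0.959 and 0.990 in RCO and between 0.985 and 0.992 in control. The count of passed genes depended on single arrays. It was 141 without RCO replicate 3, between 185 and 287 without any 1 control replicate, 376 without RCO replicate 2, 351 without RCO replicate 4, 721 without RCO replicate 1 and 1000 without RCO replicate 5. Without RCO replicates 2 and 3 together it was 196 (2.9%). For this reason each named gene that passed is given with the number of the 10 fits with 1 array left out in which it passed, wherever that was below 10, together with the highest adjusted p among them, which came without RCO replicate 3 or control replicate 2 for each such gene. The counts of the gene lists likewise were lowest without RCO replicate 3 in most lists. Of the 521 genes, 132 passed in all 10. Signal of the hybridization spike-in probe sets lay between 10.52 and 11.09 in RCO and 10.58 and 10.66 in control, and RCO replicate 1 was the array at 11.09. The difference between 3 prime and 5 prime actin probe sets, a sign of RNA quality, was 0.78 to 1.69 in RCO and 1.24 to 1.96 in control (two-sided exact permutation test, p = 0.103, adjusted over 6 properties 0.31). For EF1a it was −0.14 to 0.00 in RCO and −0.06 to 0.03 in control (same permutation test, p = 0.0714, adjusted 0.31). RCO replicates 2 and 3 had the lowest actin values, 0.78 and 0.79. The interquartile range of the signal was 3.32, 3.31 and 3.22 on RCO replicates 2, 3 and 4, above the control range of 3.04 to 3.16. MYH7, ACTC1 and TTN, which are abundant in heart muscle, read 14.87, 14.13 and 14.26 in control, where the array medians lay between 6.79 and 6.81.

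The largest rise of a single gene was that of HSPA6, a cytosolic heat shock protein. HSPA6, a strictly stress-inducible member of the HSP70 family, read 6.62, 6.32, 6.66, 7.09 and 6.46 on control arrays 1 to 5, and 11.88, 9.10, 13.13, 12.85 and 12.77 on RCO arrays 1 to 5. All RCO arrays lay above all control arrays, and RCO replicate 2 was the lowest of them. The means were 6.63 ± 0.29 and 11.95 ± 1.66 (SD, n = 5 each), a 39.8-fold difference (log2 5.32 ± 0.63, SE; limma adjusted p = 0.0020). DNAJB1, the HSP40 cochaperone that hands substrates to HSP70, read 8.42, 8.79, 8.39, 8.52 and 8.79 in control and 12.24, 9.76, 12.37, 11.77 and 12.03 in RCO. The same array, RCO replicate 2, was again the lowest, and the groups did not overlap. DNAJB1 rose 8.29-fold (log2 3.05 ± 0.41, SE; limma adjusted p = 0.0050).

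HSPH1, which exchanges the nucleotide of HSP70, read 9.24, 9.11, 9.10, 8.95 and 9.35 in control and 11.79, 10.74, 12.44, 12.19 and 12.41 in RCO. It rose 6.79-fold (log2 2.76 ± 0.28, SE; limma adjusted p = 0.0017). HSP70.2, the porcine inducible HSP70 gene, read 10.45, 11.24, 10.31, 10.45 and 10.58 in control and 12.75, 11.37, 13.84, 13.92 and 14.12 in RCO. RCO replicate 2 stood only just above the highest control array. HSP70.2 rose 6.04-fold (log2 2.59 ± 0.45, SE; limma adjusted p = 0.013), and its 2 other probe sets gave 2.07 and 2.51. Its mRNA is nearly identical to that of neighbouring HSP70 genes, which the probe sets may not tell apart.

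Of 33 measured members of the list of heat shock proteins and cochaperones, 7 rose and 0 fell, with a median of 0.25. DNAJA1, another HSP40 (log2 1.08), PTGES3, the p23 cochaperone of HSP90 (0.65), and BAG3, which links HSP70 to autophagy (1.12), made up the rest of the 7. BAG3 passed in 2 of the 10 fits with 1 array left out (adjusted p up to 0.11). The other probe set of DNAJA1 read −0.10 and that of PTGES3 −0.15. Without any 1 array, between 6 and 10 members rose. The constitutive HSP70 gene HSPA8 differed by 0.10 ± 0.11 (SE; limma adjusted p = 0.59), and its 3 other probe sets read −0.16 to −0.02. The small heat shock proteins HSPB1 (0.30 ± 0.16, SE; limma adjusted p = 0.25) and CRYAB (0.23 ± 0.13, SE; limma adjusted p = 0.28), which are abundant in heart muscle, did not pass. A second CRYAB probe set read −1.25. HSF1, the transcription factor that drives heat shock genes, differed by −0.12 ± 0.10 (SE).

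**Figure D2:**
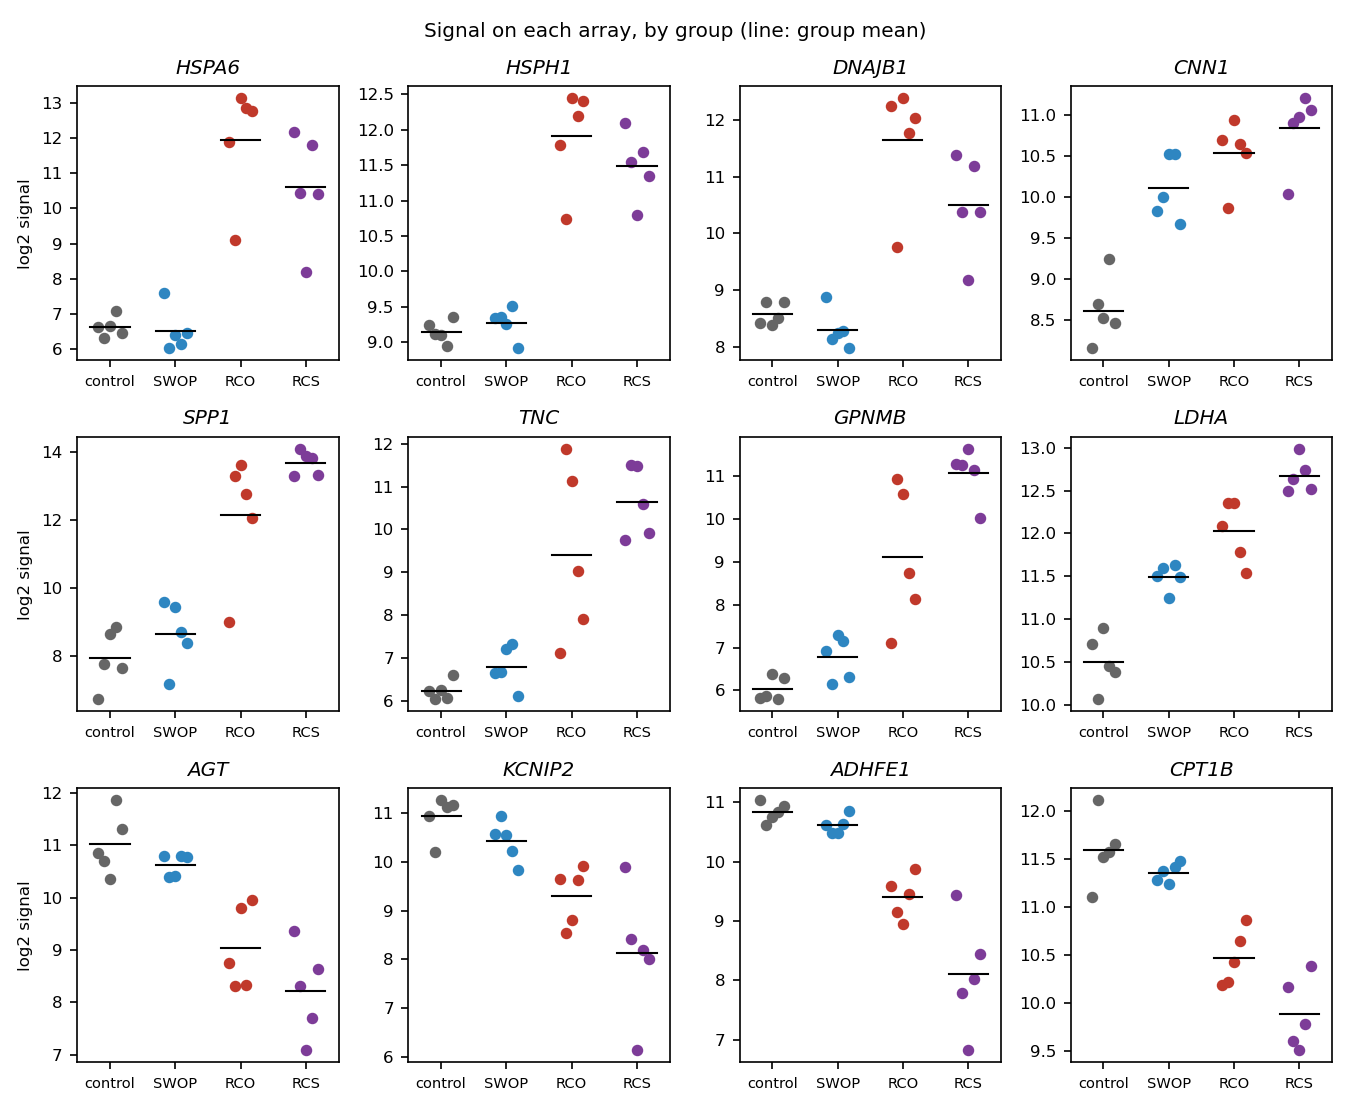
Log2 signal of 12 genes on every array of the series, with each point an animal and each line the mean of 5 arrays, in the order control, SWOP, RCO, RCS. The heat shock genes HSPA6, HSPH1 and DNAJB1 had means of 6.52, 9.28 and 8.31 in SWOP and lay above every control array on all RCO arrays, and AGT, KCNIP2, ADHFE1 and CPT1B were lower on all RCO arrays than on any control array.

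Of 20 measured genes of protein folding in the endoplasmic reticulum 6 rose and 0 fell, all 20 differences were positive, and the median was 0.59. XBP1, the transcription factor of the unfolded protein response, read 10.04 to 10.35 in control and 10.61 to 11.17 in RCO (log2 0.68 ± 0.12, SE; limma adjusted p = 0.012). MANF, a secreted stress factor (0.89), CRELD2, a folding factor of the same response (1.05), and DNAJB11, a lumenal HSP40 (0.69), rose and held in all 10 fits with 1 array left out. SDF2L1, which works with the lumenal HSP70, rose by 0.86, and DDIT3, the stress transcription factor CHOP, by 1.07. DDIT3 passed in 2 of 10 fits (adjusted p up to 0.096). HSPA5, the main lumenal HSP70, differed by 0.64 ± 0.18 (SE; limma adjusted p = 0.052). Between 5 and 10 members rose without any 1 array, and the median was 0.26 without RCO replicates 2 and 3.

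Machinery for translocation, signal cleavage and export of secretory proteins rose in 10 of 42 measured members and fell in 0, with a median of 0.43. SSR4, a subunit of the translocon-associated complex, read 10.71, 10.89, 10.96, 11.01 and 11.13 in control and 12.32, 12.26, 12.35, 11.91 and 11.61 in RCO. Its groups did not overlap (log2 1.15 ± 0.15, SE; limma adjusted p = 0.0034). KDELR3, a retrieval receptor (1.65), SEC11C, a signal peptidase subunit (0.77), and SEC61B, of the translocation channel (0.98), also rose. The 2 other KDELR3 probe sets read 0.08 and 1.5. The list count fell to 3 without RCO replicate 3, and SEC61B passed in 6 of 10 fits (adjusted p up to 0.086).

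Cytosolic ribosomal proteins rose in 11 of 59 measured members, 57 differences were positive, and the median was 0.21. RPL3 rose most (log2 0.90 ± 0.18, SE; limma adjusted p = 0.018), from 11.42 to 11.97 in control to 12.03 to 13.04 in RCO, and passed in all 10 fits. RPLP2, of the ribosomal stalk, rose by 0.46 (9 of 10 fits, adjusted p up to 0.052). The count of 11 fell to 1 without RCO replicate 3. Translation factors had 2 of 43 higher and 1 lower (6.98% in either direction, against 7.7% of all genes), with a median of 0.10. EIF4B, which assists the unwinding of mRNA, fell by 0.54 (limma adjusted p = 0.013), and EIF3I, a subunit of initiation factor eIF3, rose by 0.57 (6 of 10 fits, adjusted p up to 0.060). The nucleolar list held 1 passed gene of 25 (4.0%, against 7.7% of all genes). It was the ribosome assembly factor NOP16 (0.60, 6 of 10 fits, adjusted p up to 0.071).

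Proteasome and ubiquitin genes rose in 3 of 43 measured members (6.98%, against 5.59% of all genes), with a median of 0.17. Of these, PSME1 (0.69) and PSME2 (0.85), the subunits of the interferon-inducible PA28 activator, held in all 10 fits, and UCHL3 (0.54), a ubiquitin hydrolase, held in 3 (adjusted p up to 0.11). Genes of the lysosome and autophagy rose in 6 of 37, with a median of 0.32. CTSH, the protease cathepsin H, rose 3.72-fold (log2 1.89 ± 0.42, SE; limma adjusted p = 0.024) and read 9.45, 11.94, 11.35, 10.20 and 9.59 on RCO arrays 1 to 5, all above the control range of 8.33 to 8.80. CTSH passed in 6 of 10 fits (adjusted p up to 0.067). NPC2, which carries cholesterol out of lysosomes, rose by 0.98 (4 of 10 fits, adjusted p up to 0.081), but its 2 other probe sets read −0.10 and 0.20. None of the lysosomal list rose without RCO replicate 3 or without control replicate 2, and 1 member fell without control replicate 2.

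Of 37 measured genes of fatty acid use 7 fell and 0 rose, 33 differences were negative, and the median was −0.34. CPT1B, the muscle carnitine palmitoyltransferase that admits long-chain fatty acids to mitochondria, read 11.10, 12.11, 11.52, 11.57 and 11.66 in control and 10.19, 10.22, 10.43, 10.65 and 10.86 in RCO. Every RCO array lay below every control array (log2 −1.12 ± 0.18, SE; limma adjusted p = 0.011). LPL, the lipase that frees fatty acids from circulating lipoproteins, read 11.67 to 12.39 in control and 10.73 to 11.77 in RCO, where only RCO replicate 5 reached the control range. LPL was −0.98 ± 0.19 (SE; limma adjusted p = 0.017), with −0.93 from its other probe set. ACSL1, which activates long-chain fatty acids (−0.94), passed in 6 of 10 fits (adjusted p up to 0.067). Enzymes of β-oxidation fell by less: ACADL by 0.64, HADH by 0.53, HADHB by 0.50 and ACAA2 by 0.63. The call of ACADL held in 8 fits, HADH in 8, HADHB in 2 and ACAA2 in 2 of 10 (adjusted p up to 0.12). PDK4, the kinase that blocks glucose oxidation when fat is burned, differed by −1.31 ± 0.70 (SE; limma adjusted p = 0.25). The list held 2 passed genes without RCO replicate 3 and 1 without RCO replicates 2 and 3.

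Amino acid, ketone and creatine genes fell in 6 of 24 measured members and rose in 1, with a median of −0.30. IVD, the isovaleryl-CoA dehydrogenase of leucine breakdown, read 9.93 to 10.34 in control and 9.27 to 9.71 in RCO (log2 −0.74 ± 0.11, SE; limma adjusted p = 0.0078). Its 3 other probe sets gave −0.91 to −0.51. BCAT2, the mitochondrial transaminase of branched-chain amino acids, fell by 0.79 (9 of 10 fits, adjusted p up to 0.052), and BCKDHA, of the dehydrogenase complex that follows, by 0.57 (4 of 10 fits, adjusted p up to 0.081). OXCT1, which lets the heart use ketone bodies, fell by 0.57 (4 of 10 fits, adjusted p up to 0.081). CKB, the brain-type creatine kinase, was the member that rose (0.76, 2 of 10 fits, adjusted p up to 0.11). The 6 lower members were 1 without RCO replicate 3.

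Of 26 measured glucose genes 1 rose (3.85%, against 5.59% of all genes), and the median was −0.01. LDHA, the lactate dehydrogenase subunit of anaerobic tissue, read 10.71, 10.07, 10.90, 10.45 and 10.38 in control and 12.09, 12.36, 12.36, 11.78 and 11.54 in RCO. The groups did not overlap, and LDHA rose 2.88-fold (log2 1.52 ± 0.19, SE; limma adjusted p = 0.0029). The glycolytic enzyme ENO1 differed by 1.07 ± 0.31 (SE; limma adjusted p = 0.058) and the insulin-responsive transporter SLC2A4 by −0.67 ± 0.19 (SE; limma adjusted p = 0.055). SLC2A4 passed in 2 of the 10 fits. In the tricarboxylic acid cycle 0 of 21 members passed, 20 differences were negative and the median was −0.25. Without RCO replicate 5, 3 of them fell. Oxidative phosphorylation had 0 of 51 passed and a median of −0.07. Without RCO replicates 2 and 3 its median was 0.14 and 3 members rose, while 2 rose without RCO replicate 2 and 2 fell without RCO replicate 5. Mitochondrial import, ribosome and dynamics had 0 of 41 passed and a median of 0.08, with 1 higher and 2 lower without RCO replicate 5. PINK1, the kinase that marks damaged mitochondria for removal, fell by 0.95 (limma adjusted p = 0.0088), from 11.45 to 11.87 in control to 10.34 to 11.10 in RCO. PPARGC1A, the coactivator of mitochondrial genes, differed by −0.34 ± 0.24 (SE; limma adjusted p = 0.39).

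**Figure D3:**
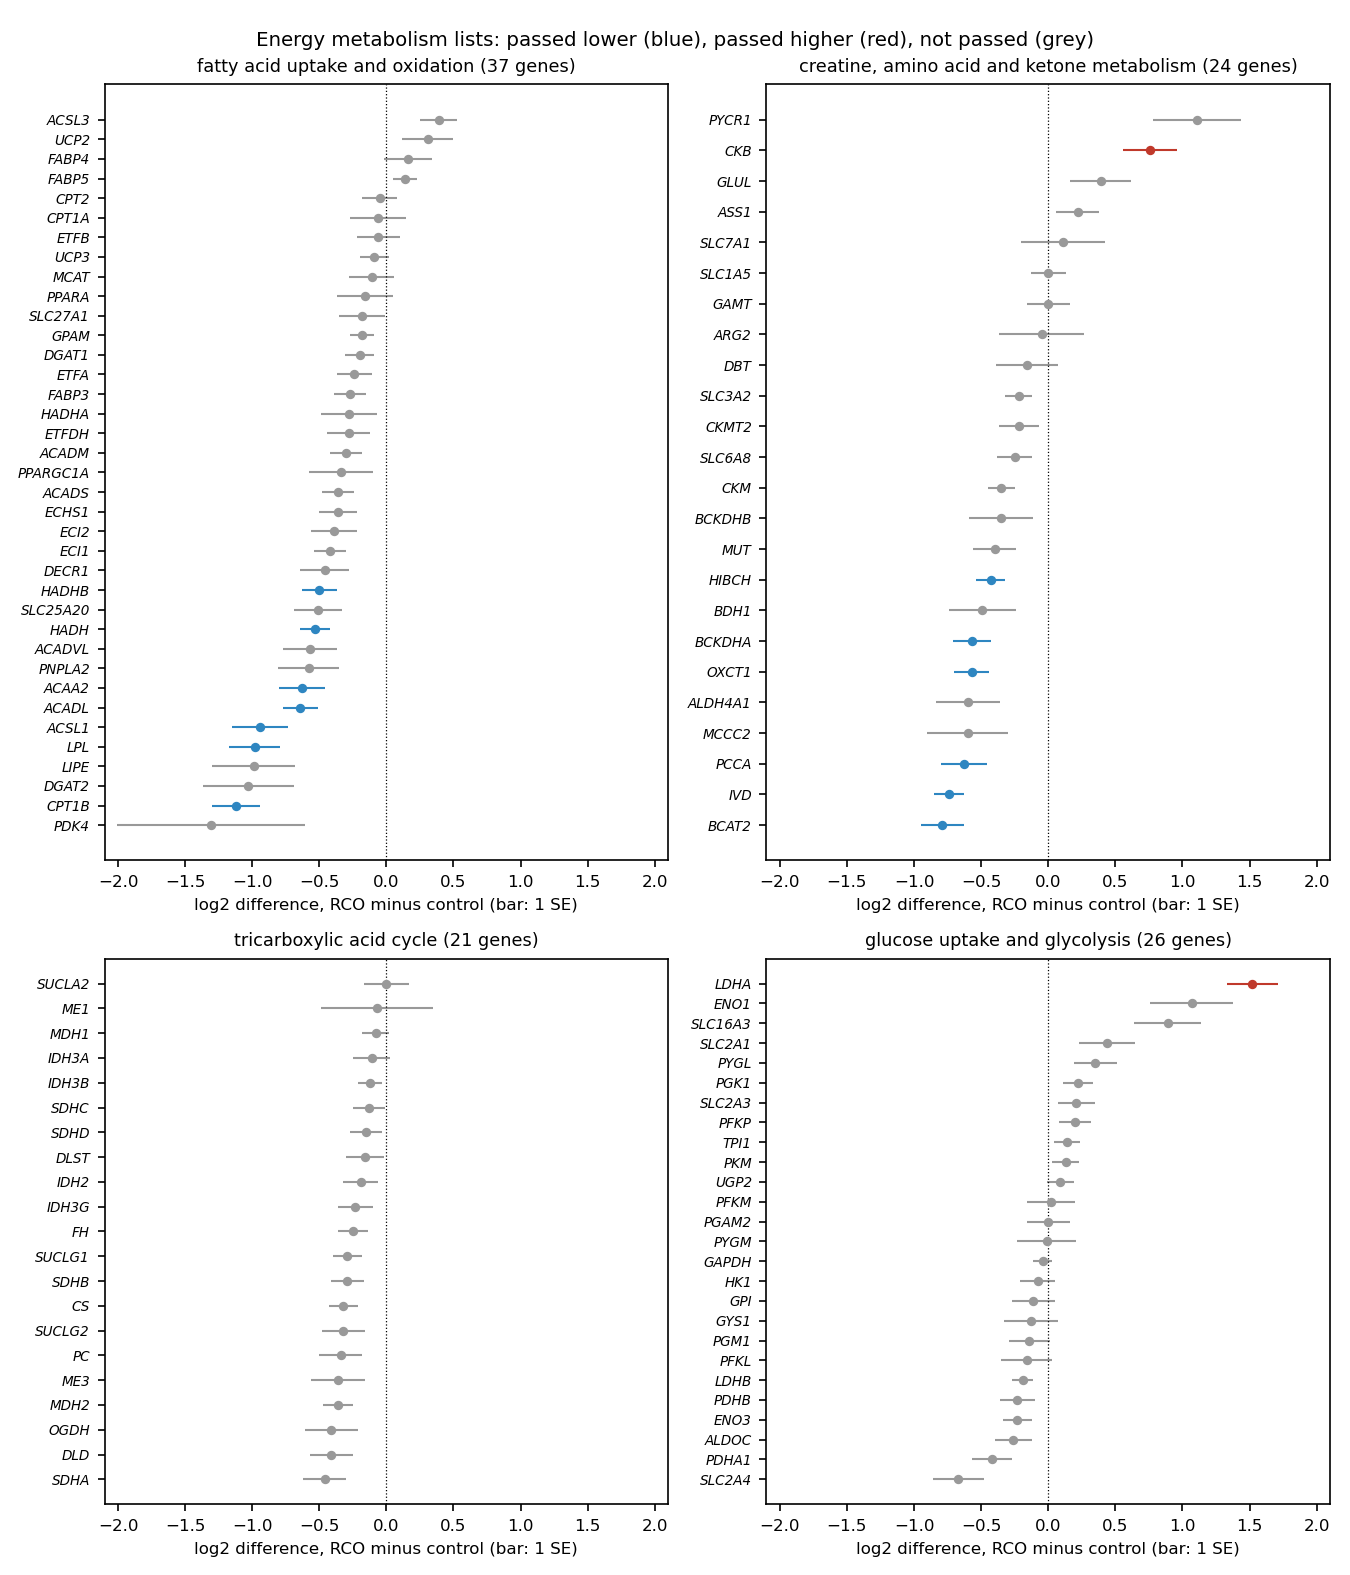
Difference between RCO and control (x axis, log2, bars 1 SE) for every measured member of 4 lists of energy metabolism, sorted within each panel. Blue marks members that fell, red those that rose and grey those that did not pass. In the fatty acid panel 7 of 37 members fell, in the creatine, amino acid and ketone panel 6 of 24 fell and 1 rose, in the tricarboxylic acid panel none of 21 passed, and in the glucose panel LDHA rose.

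The antioxidant and late preconditioning list was divided, with 6 of 37 measured members higher, 2 lower and a median of 0.03. Without RCO replicate 3, 2 members rose, and at most 7 rose without any 1 array. GLRX, the thiol-reducing glutaredoxin, read 7.65, 8.20, 7.92, 7.85 and 7.72 in control and 9.04, 9.83, 9.69, 9.37 and 9.18 in RCO. It rose 2.94-fold (log2 1.55 ± 0.16, SE; limma adjusted p = 0.0017). TXN, thioredoxin, rose by 1.04 ± 0.12 (SE; limma adjusted p = 0.0021), from 11.15 to 11.36 in control to 11.89 to 12.60 in RCO. GCLC, the rate-limiting enzyme of glutathione synthesis, rose by 0.36 (9 of 10 fits, adjusted p up to 0.051), and 3 of 4 other probe sets were above 0. GPX1, a glutathione peroxidase, read 10.69, 10.74, 8.34, 10.70 and 10.56 in control and 11.42, 12.82, 12.75, 11.86 and 12.10 in RCO. Control replicate 3 stood more than 2 log2 units below the other control arrays. The difference was 1.98 with it and 1.52 without it, and GPX1 passed in 9 of 10 fits (adjusted p 0.075 without RCO replicate 3).

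CAT, catalase, fell by 0.76 ± 0.13 (SE; limma adjusted p = 0.012), from 11.45 to 11.93 in control to 10.48 to 11.05 in RCO. TXNIP, the thioredoxin inhibitor, fell by 0.61 (5 of 10 fits, adjusted p up to 0.093). Of 32 genes of late preconditioning, load and survival that were to be reported whatever their result, 27 were measured and 2 passed, HSP70.2 and the gap junction gene GJA1 (−0.35, 4 of 10 fits, adjusted p up to 0.11). The nitric oxide synthases NOS2 (0.03 ± 0.14, SE) and NOS3 (0.02 ± 0.11, SE), the cyclooxygenase PTGS2 (−0.05 ± 0.34, SE) and the adenosine receptor ADORA1 (−0.05 ± 0.16, SE) had limma adjusted p-values between 0.86 and 0.94. PTGS2 averaged 4.47 in control and 4.41 in RCO, and ADORA1 5.38 and 5.32. These means lay below the 30th percentile of all tested values, 5.5, where a change may be missed. The superoxide dismutases SOD2 (−0.24 ± 0.14, SE) and SOD1 (0.28 ± 0.09, SE) did not pass (limma adjusted p = 0.28 and 0.073). HMOX1, heme oxygenase, read 7.67, 10.38, 9.67, 7.89 and 8.43 in RCO against 7.45 to 8.55 in control and did not pass (limma adjusted p = 0.18). It was high on RCO replicates 2 and 3 and within the control range on the other 3.

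Among hypoxia genes 1 of 22 passed (4.55%, against 7.7% of all genes) and the median was 0.02. CITED2, which competes with HIF-1 for its coactivator, fell. It read 11.74, 11.37, 11.42, 11.79 and 11.22 in control and 10.64, 10.16, 10.35, 10.27 and 10.39 in RCO, with no overlap (log2 −1.15 ± 0.13, SE; limma adjusted p = 0.0017). HIF1A differed by 0.40 ± 0.12 (SE; limma adjusted p = 0.061), and VEGFA, the vascular growth factor, by 0.13 ± 0.22 (SE; limma adjusted p = 0.73). Among immediate early and stress transcription factors 1 of 21 passed (4.76%, against 7.7% of all genes). ATF3, the stress-induced repressor, read 7.05, 7.33, 9.32, 10.36 and 8.57 in control and 10.75, 9.77, 11.43, 12.06 and 12.09 in RCO. RCO replicate 2 was below control replicate 4, so the groups overlapped, and ATF3 rose 6.47-fold (log2 2.69 ± 0.63, SE; limma adjusted p = 0.029; 5 of 10 fits, adjusted p up to 0.077). FOS differed by 1.48 ± 0.79 (SE; limma adjusted p = 0.25) and EGR1 by 0.89 ± 0.58 (SE; limma adjusted p = 0.34).

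Of 26 genes of apoptosis and survival, 4 rose with a median of 0.30, and the per-array medians of the 5 RCO arrays lay between 0.14 and 0.31 against −0.13 to 0.04 in control. They were CASP8, the initiator caspase of death receptors (0.57), CASP1, the caspase that matures interleukins (1.09), BIRC5, survivin (1.05), and BAD, a pro-apoptotic BCL2 relative (0.33). Each passed in at most 4 of 10 fits (adjusted p up to 0.12), and none passed without RCO replicate 2 or 3 or without control replicate 1, 2 or 3. MCL1, an anti-apoptotic relative, differed by −0.18 ± 0.10 (SE; limma adjusted p = 0.26). UCHL1, a ubiquitin hydrolase, differed by 0.62 ± 0.28 (SE; limma adjusted p = 0.18).

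Of 45 measured extracellular matrix genes 8 rose and 1 fell, with a median of 0.49, and values varied widely between the RCO animals. SPP1, osteopontin, read 6.73, 7.75, 8.65, 8.85 and 7.63 in control and 9.0, 13.27, 13.60, 12.75 and 12.05 in RCO. RCO replicate 1 stood just above the highest control array and the other RCO arrays more than 3 log2 units above it. SPP1 rose 18.5-fold (log2 4.21 ± 0.76, SE; limma adjusted p = 0.013). TNC, tenascin C, a matrix protein of wounds, read 6.22, 6.04, 6.25, 6.07 and 6.59 in control and 7.12, 11.87, 11.14, 9.04 and 7.90 in RCO. Its 9.06-fold rise (log2 3.18 ± 0.77, SE; limma adjusted p = 0.032) passed in 3 of 10 fits (adjusted p up to 0.084), and the difference was 1.79 without RCO replicates 2 and 3 (limma adjusted p = 0.030). CILP, a matrix protein of cartilage and heart, rose 7.32-fold (log2 2.87 ± 0.43, SE; limma adjusted p = 0.0078), but its other probe set read −0.11.

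POSTN, periostin of activated fibroblasts, rose by 1.99 (3 of 10 fits, adjusted p up to 0.082), COL8A1, a short-chain collagen, by 1.60 (6 of 10 fits, adjusted p up to 0.066) and LOXL1, which cross-links elastin, by 1.53 (4 of 10 fits, adjusted p up to 0.077). The 3 other COL8A1 probe sets read −0.03 to 0.82, and the other POSTN probe set 0.54. The collagen genes COL1A2 (0.55 ± 0.56, SE) and COL3A1 (−0.13 ± 0.11, SE) did not pass (limma adjusted p = 0.55 and 0.49). LAMB2, a basement membrane laminin, was the member that fell (−0.65, limma adjusted p = 0.043), and it did not pass without RCO replicate 2, RCO replicate 3 or any 1 control replicate. The matrix list median was −0.15, 1.22, 0.86, 0.29 and 0.23 on RCO arrays 1 to 5 against −0.17 to 0.16 on control arrays. It was 0.07 over the fit without RCO replicates 2 and 3, in which 4 members rose. Between 2 and 15 members rose without any 1 array, with the fewest without control replicate 2, 4 or 5.

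The cytoskeletal list held the most higher genes, 18 of 51 measured members against 1 lower, with a median of 0.50. S100A10, the calcium-binding partner of annexin A2, read 11.04 to 11.39 in control and 11.84 to 12.87 in RCO (log2 1.05 ± 0.19, SE; limma adjusted p = 0.013). Subunits of the Arp2/3 complex, which branches actin filaments, were among the risen genes: ARPC2 (0.39), ARPC3 (0.69) and ARPC1B (1.30). ARPC2 was dim, with means of 5.58 in control and 5.97 in RCO, near the 30th percentile of all tested values, 5.5. Among genes that cap or sever actin, CAPG was higher (1.79, limma adjusted p = 0.029) and GSN, gelsolin, was lower (−0.71, limma adjusted p = 0.026, with −0.27 from its other probe set). Of these, CAPG passed in 4, GSN in 5, ARPC1B in 7 and ARPC3 in 9 of 10 fits (adjusted p up to 0.081). Without RCO replicate 3 the list held 3 higher genes, and the most without any 1 array was 27.

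**Figure D4:**
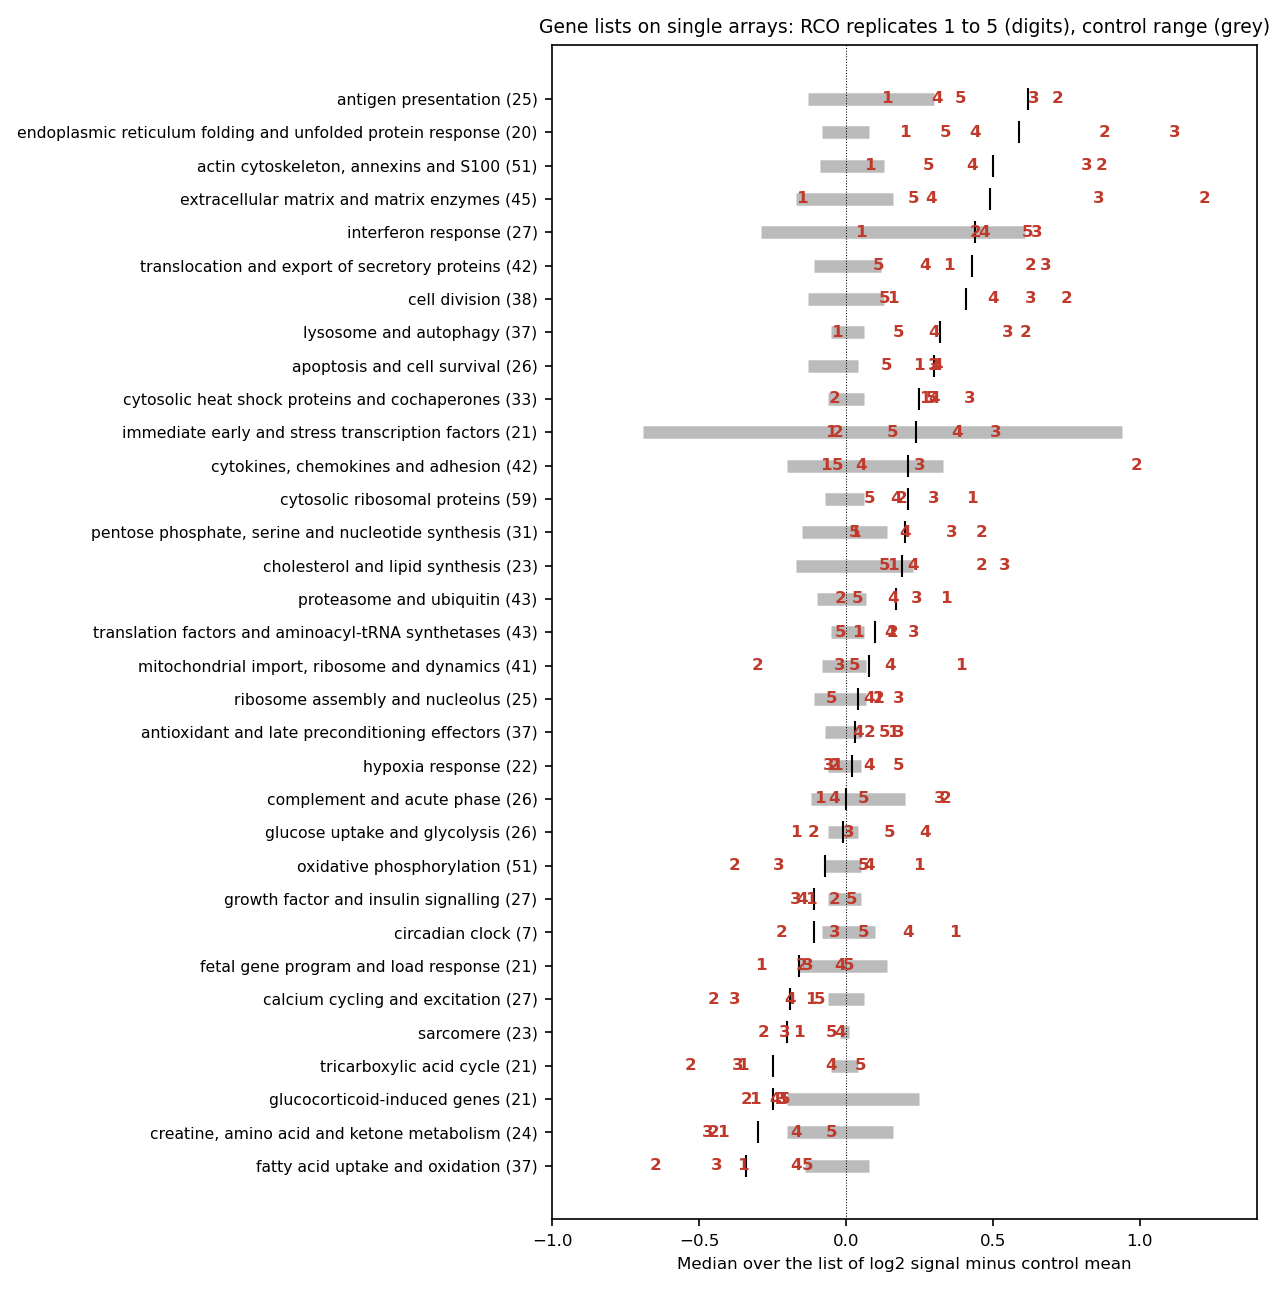
Median of each pathway list on single arrays, as log2 signal minus the control mean of each gene (x axis), with the number of measured members in brackets. Red digits are RCO replicates 1 to 5, grey bars span the 5 control arrays, and black ticks mark the median of the differences between group means. In the matrix list RCO replicates 2 and 3 lay to the right of the other RCO arrays, at 1.22 and 0.86. RCO replicate 2 lay inside the control range in the heat shock list at −0.04.

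The RCO arrays did not order the same way in each list. In the heat shock list their medians were 0.27, −0.04, 0.42, 0.30 and 0.29, so that RCO replicate 2 was lowest, at the control level of −0.06 to 0.06. In the matrix list RCO replicate 2 was highest and RCO replicate 1 lowest. Oxidative phosphorylation read 0.25 on RCO replicate 1 and −0.38 on RCO replicate 2 (control −0.07 to 0.05). Fatty acid genes read −0.35, −0.65, −0.44, −0.17 and −0.13 on RCO arrays 1 to 5, with RCO replicate 5 inside the control range of −0.14 to 0.08. These are descriptions of 5 animals and were not tested.

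Lists of cell type markers were counted in the same way. Of 15 measured macrophage and monocyte markers 5 rose and 0 fell, with a median of 0.60. Their median on single RCO arrays was 0.24, 1.5, 0.57, 0.40 and 0.31 against −0.21 to 0.25 in control. Without RCO replicate 3 or control replicate 1, 2 of them rose. In bulk heart tissue, more cells of a type and more RNA per cell cannot be told apart. AIF1, a macrophage marker, read 7.75, 7.68, 7.72, 7.96 and 8.47 in control and 9.01, 10.23, 9.62, 9.04 and 8.69 in RCO (log2 1.4 ± 0.27, SE; limma adjusted p = 0.016). GPNMB, a glycoprotein of lipid-laden macrophages, rose 8.37-fold (log2 3.07 ± 0.62, SE; limma adjusted p = 0.018), with 7.11, 10.93, 10.59, 8.73 and 8.14 in RCO against 5.80 to 6.39 in control. Its 4 other probe sets gave −0.18 to 1.14, 2 of them above 0. FCER1G, a receptor chain of myeloid cells, rose by 1.21 (3 of 10 fits, adjusted p up to 0.10), while CD163 (0.94 ± 0.47, SE) and CD14 (0.35 ± 0.26, SE) did not pass (limma adjusted p = 0.22 and 0.39).

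Fibroblast markers rose in 2 of 10, POSTN and THY1, with a median of 0.55, or −0.04 without RCO replicates 2 and 3, and RCO array medians of −0.25, 1.28, 1.08, 0.28 and 0.11 against −0.65 to 0.30 in control. Neither passed without RCO replicate 2, 3 or 4 or control replicate 1, 2, 4 or 5. The part of these 2 cell types in the matrix, lysosomal and cytoskeletal differences was not tested. Among cardiomyocyte markers 2 of 12 fell, the cardiac actin ACTC1 (−0.41, 5 of 10 fits, adjusted p up to 0.074) and titin, TTN (−0.34, 3 of 10 fits, adjusted p up to 0.10), and the median was −0.18. That median lay between −0.29 and −0.04 on single RCO arrays against −0.02 to 0.02 in control, and its part in the lower metabolic genes was not tested. MYH7 differed by −0.10 ± 0.08 (SE; limma adjusted p = 0.41). None of 6 neutrophil, 11 T and NK cell, 4 red blood cell or 2 mast cell markers passed, with medians of −0.08, 0.16, 0.36 and −0.19. JCHAIN, of antibody-secreting cells, rose by 2.20 (3 of 10 fits, adjusted p up to 0.11), and 1 of 3 markers of B and plasma cells passed. One of 12 endothelial markers fell, the receptor TIE1 (−0.32, 1 of 10 fits, adjusted p up to 0.12). One of 8 adipocyte markers fell, the protease CFD (−0.83, 6 of 10 fits, adjusted p up to 0.074), with a list median of −0.50. No marker passed among 5 of Schwann cells and neurons (median −0.05) or 4 of mesothelium (median 0.09).

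Smooth muscle and pericyte markers had 1 of 8 passed, CNN1, calponin of smooth muscle. CNN1 read 8.16, 8.69, 8.52, 9.24 and 8.47 in control and 10.70, 9.86, 10.94, 10.64 and 10.54 in RCO. The groups were separate on every array, and the rise was 3.78-fold (log2 1.92 ± 0.22, SE; limma adjusted p = 0.0017). ACTA2, smooth muscle actin, differed by 0.42 ± 0.37 (SE; limma adjusted p = 0.48), and TAGLN, transgelin, by 0.66 ± 0.39 (SE; limma adjusted p = 0.29). The list median was 0.25 on the fit and −0.17 to 0.49 on single RCO arrays, against −0.22 to 0.26 in control. None of the other 7 measured markers of that list passed.

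Genes of antigen presentation rose in 8 of 25 measured members and fell in 0, with a median of 0.62, and PSME1 and PSME2 above were among the 8. PSMB8, an immunoproteasome subunit, read 8.19, 8.58, 7.99, 7.90 and 8.84 in control and 9.22, 9.5, 9.38, 9.62 and 9.43 in RCO. All RCO arrays lay above all control arrays, within a narrow range (log2 1.13 ± 0.17, SE; limma adjusted p = 0.0078). PSMB10, another immunoproteasome subunit, rose by 0.79 in the same way and held in all 10 fits. Antigen presentation held 4 higher genes without RCO replicate 3 or without control replicate 1, 2 or 3. Interferon response genes rose in 4 of 27, with a median of 0.44, and in 1 of 27 without RCO replicate 3 or 4 or without control replicate 1, 2, 3 or 4. UBD, the ubiquitin-like modifier FAT10, rose by 1.23 and passed in all 10 fits, GBP1, a guanylate-binding protein, by 1.29 (3 of 10 fits, adjusted p up to 0.093). The control range of the interferon list median, −0.29 to 0.61, covered RCO replicates 1, 2 and 4.

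Cytokines, chemokines and adhesion genes rose in 2 of 42 (4.76%, against 5.59% of all genes), SPP1 and IL18. The median was 0.21, or −0.02 without RCO replicates 2 and 3, and only SPP1 passed without RCO replicate 3. IL18, matured by caspase 1, read 5.66 to 6.30 in control and 6.61 to 8.04 in RCO (log2 1.29 ± 0.26, SE; limma adjusted p = 0.018; 9 of 10 fits, adjusted p up to 0.052). IL6 (−1.08 ± 0.88, SE), TNF (−0.29 ± 0.14, SE) and CCL2 (0.77 ± 0.57, SE) did not pass (limma adjusted p = 0.44, 0.22 and 0.40). Control replicate 4 read 9.98 for IL6, where the other control arrays read 4.53 to 5.67. Complement and acute phase genes had 1 of 26 higher and 1 lower (7.69% in either direction, against 7.7% of all genes), with a median of 0.00. The higher gene was the membrane inhibitor CD59 (0.39, 1 of 10 fits, adjusted p up to 0.11) and the lower gene was CFD. PTX3, an acute phase protein, differed by −0.29 ± 0.54 (SE; limma adjusted p = 0.76). The PTX3 means, 5.42 in control and 5.13 in RCO, lay below the 30th percentile of all tested values, 5.5. The IL6 mean in RCO, 4.80, also lay below it.

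In the sarcomere list 4 of 23 fell and 0 rose, with a median of −0.20. MYOM2, a myomesin of the M-band, read 13.53, 13.76, 13.53, 13.94 and 13.79 in control and 12.34, 12.63, 12.14, 12.86 and 13.10 in RCO (log2 −1.10 ± 0.17, SE; limma adjusted p = 0.0090). TCAP, telethonin of the Z-disc, fell by 0.47 (8 of 10 fits, adjusted p up to 0.053). Only MYOM2 of these 4 passed without RCO replicate 3 or control replicate 2. In the calcium and excitation list 4 of 27 fell and 0 rose, with a median of −0.19: HRC, a calcium-binding protein of the sarcoplasmic reticulum (−0.53), PDE3A, a cyclic nucleotide phosphodiesterase (−0.77), CAMK2D, the calcium-calmodulin kinase of the heart (−0.55), and GJA1. HRC held in 9, PDE3A in 8 and CAMK2D in 6 of 10 fits (adjusted p up to 0.067), and none of the 4 passed without RCO replicate 3. RYR2, the calcium release channel, differed by −0.50 ± 0.16 (SE; limma adjusted p = 0.073) and ATP2A2, the calcium pump, by −0.29 ± 0.11 (SE; limma adjusted p = 0.13). Only 1 of the 3 other ATP2A2 probe sets was below 0.

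KCNIP2, which carries the transient outward potassium current with its channel, lay outside the lists and fell most after AGT among genes not known by a locus name alone. It read 10.94, 10.19, 11.25, 11.11 and 11.15 in control and 9.64, 8.55, 8.80, 9.62 and 9.91 in RCO (log2 −1.62 ± 0.28, SE; limma adjusted p = 0.012). AGT, angiotensinogen, read 10.86, 10.71, 10.35, 11.86 and 11.32 in control and 8.75, 8.32, 9.80, 8.33 and 9.96 in RCO. Its fall was the largest of all genes that passed, 3.97-fold (log2 −1.99 ± 0.37, SE; limma adjusted p = 0.015). Both genes had all RCO arrays below all control arrays, and both passed in all 10 fits. AGTR1, the angiotensin receptor, fell by 0.44 (3 of 10 fits, adjusted p up to 0.084).

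In the fetal and load list 1 of 21 rose and 3 fell, with a median of −0.16. The lower ones were AGT, AGTR1 and EDNRA, the endothelin receptor (−0.51), of which EDNRA passed in 1 of 10 fits (adjusted p up to 0.11). The natriuretic peptide genes NPPA (1.16 ± 0.53, SE; limma adjusted p = 0.18) and NPPB (2.08 ± 0.60, SE; limma adjusted p = 0.055) did not pass. NPPB read 7.44, 8.63, 9.57, 10.94 and 10.02 in control and 11.17, 11.28, 12.91, 10.79 and 10.86 in RCO, a wide spread in control. TNNT1, slow skeletal troponin T, rose by 1.30 (9 of 10 fits, adjusted p up to 0.060), and MYL1, a fast skeletal myosin light chain, by 2.02 (4 of 10 fits, adjusted p up to 0.077). These were 2 of 11 skeletal muscle isoforms measured, with a list median of −0.05. MYL1 read 8.55 to 10.70 in RCO and 6.5 to 9.05 in control, and the groups overlapped.

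Cell division genes rose in 11 of 38 measured members and fell in 1, with a median of 0.41. CKS2, a subunit of cyclin-dependent kinases, read 7.79, 7.68, 8.33, 7.38 and 8.21 in control and 9.45, 9.94, 9.88, 9.54 and 8.81 in RCO (log2 1.65 ± 0.23, SE; limma adjusted p = 0.0065). H2AFZ, a histone variant, rose by 1.05 and MCM5, of the replicative helicase, by 0.49, and both held in all 10 fits. The 2 other MCM5 probe sets read 0.09 and 0.23. TOP2A, the topoisomerase of dividing cells, rose by 1.12 (5 of 10 fits, adjusted p up to 0.071). CCND2, cyclin D2, was the member that fell. Its control values were close together, from 10.11 to 10.20, and its RCO values were 8.90, 9.64, 9.64, 8.97 and 9.13 (log2 −0.88 ± 0.15, SE; limma adjusted p = 0.012). The list held 3 higher genes without RCO replicate 3. Which cells carried these transcripts was not tested.

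Nucleotide, serine and pentose phosphate genes had 3 of 31 higher and 1 lower, with a median of 0.20, and 1 of the 3 rose without RCO replicate 3. MTHFD2, a mitochondrial enzyme of one-carbon metabolism, rose by 0.86 (limma adjusted p = 0.0072), and SHMT1, the cytosolic serine hydroxymethyltransferase, fell by 0.64 (limma adjusted p = 0.013), both in all 10 fits. Cholesterol and lipid synthesis genes rose in 4 of 23, with a median of 0.19, and in 2 without RCO replicate 3. INSIG1, which restrains sterol synthesis and is itself induced with it, read 6.80 to 8.59 in control and 9.11 to 10.03 in RCO (log2 1.89 ± 0.33, SE; limma adjusted p = 0.013). FDPS, of the mevalonate pathway, rose by 0.71 and held in all 10 fits. Of the growth factor and insulin list 1 of 27 rose and 2 fell (11.1% in either direction, against 7.7% of all genes), with a median of −0.11. Among those that fell was the receptor IGF1R (−0.85, 8 of 10 fits, adjusted p up to 0.052).

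Of 21 glucocorticoid-induced genes 2 fell, with a median of −0.25. They were FOXO3, a transcription factor of fasting and atrophy (−0.48, 4 of 10 fits, adjusted p up to 0.074), whose other probe set read −0.07, and TXNIP. Of 7 clock genes 2 rose, BHLHE40, a clock repressor (1.42, 9 of 10 fits, adjusted p up to 0.053), and ARNTL, the clock activator BMAL1 (1.03, 4 of 10 fits, adjusted p up to 0.10). The other BHLHE40 probe set read −0.11. PER1 differed by −0.68 ± 0.22 (SE; limma adjusted p = 0.076). The time of day of sampling is not given, so the clock difference and a difference in sampling hour cannot be told apart.

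Further genes with large differences lay outside the lists. RGS2, a brake on Gq signalling, rose 4.77-fold (log2 2.25 ± 0.47, SE; limma adjusted p = 0.019; 8 of 10 fits, adjusted p up to 0.058), and its 2 other probe sets read −0.06 and 0.25. CSRP2, a LIM protein of smooth muscle and fibroblasts, rose by 2.07 (9 of 10 fits, adjusted p 0.051 without control replicate 2). ADHFE1, a mitochondrial hydroxyacid transhydrogenase, read 11.03, 10.61, 10.76, 10.84 and 10.93 in control and 9.59, 9.15, 8.95, 9.45 and 9.88 in RCO (log2 −1.43 ± 0.16, SE; limma adjusted p = 0.0017). EFHD1, a calcium-binding mitochondrial protein, fell by 1.38 (limma adjusted p = 0.0053). SELENBP1, a selenium-binding protein, fell by 1.25 and RNF207, a regulator of cardiac excitation, by 1.01, and both held in all 10 fits. SCARA5, a ferritin receptor, fell by 1.56 (9 of 10 fits, adjusted p up to 0.053), and MAVS, the mitochondrial adaptor of antiviral signalling, by 0.95 (2 of 10 fits, adjusted p up to 0.086).

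RCO was next set directly against the other protocols, for the genes named above. These comparisons share the 5 RCO arrays with each other and with the comparison against control. Between RCO and SWOP 334 of 6765 genes passed (percent called 4.94), 151 higher (2.23%) and 183 lower (2.71%) in RCO. After quantile normalization 139 were higher and 105 lower. SWOP was sampled after 24 h of reperfusion, and the time from the last episode to sampling in RCO is not given. Repetition and time to sampling therefore cannot be told apart in this comparison. Between RCO and RCS 297 passed (percent called 4.39), 134 higher (1.98%) and 163 lower (2.41%). Both counts depended on single arrays. Against SWOP the count lay between 24 and 707 without any 1 array, at 24, 28, 34 and 55 without SWOP replicates 5, 4, 2 and 3. It was 59, 707 and 634 without RCO replicates 3, 1 and 5. Against RCS it lay between 25 and 1433, at 25, 31, 33 and 186 without RCS replicates 4, 2, 3 and 1. It was 40, 54 and 116 without RCO replicates 4, 5 and 1, and 1433 without RCO replicate 2.

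HSPA6, DNAJB1 and HSPH1 were higher in RCO than in SWOP. HSPA6 read 6.52 ± 0.62 (SD, n = 5) in SWOP and 11.95 ± 1.66 in RCO (difference 5.42 ± 0.66, SE; limma adjusted p = 0.0033). DNAJB1 was higher in RCO by 3.32 ± 0.42 (SE; limma adjusted p = 0.0033) and HSPH1 by 2.64 ± 0.28 (SE; limma adjusted p = 0.0027). ATF3 differed by 3.89 ± 0.48 (SE; limma adjusted p = 0.0033), RGS2 by 2.14 ± 0.30 (SE; limma adjusted p = 0.0062) and INSIG1 by 1.28 ± 0.21 (SE; limma adjusted p = 0.014). CITED2 was lower in RCO by 1.28 ± 0.10 on the log2 scale (limma adjusted p = 0.00031), as were EFHD1 (−1.44 ± 0.20, SE), ADHFE1 (−1.21 ± 0.16, SE) and CPT1B (−0.89 ± 0.13, SE), with limma adjusted p-values between 0.0040 and 0.0066. These 10 genes passed against SWOP in all 10 fits with 1 array left out. The heat shock genes BAG3, HSPA8, HSPB1 and CRYAB did not pass against SWOP (limma adjusted p = 0.065, 0.41, 0.62 and 0.92).

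Other genes that differed from SWOP rested on fewer fits. PSMB8 was higher in RCO by 0.61 (9 of 10 fits, adjusted p up to 0.052), BHLHE40 by 1.56 (7 of 10, up to 0.064), IL18 by 1.25 (5 of 10, up to 0.082) and SPP1 by 3.49 (5 of 10, up to 0.096). GLRX was higher by 0.59 (2 of 10, adjusted p up to 0.13) and AGT lower, at −1.60 (6 of 10, up to 0.074). CNN1 read 10.11 ± 0.39 (SD) in SWOP against 10.54 ± 0.41 in RCO, a difference of 0.43 ± 0.22 (SE; limma adjusted p = 0.23). ARNTL (−0.27 ± 0.24, SE; limma adjusted p = 0.50), RPL3 (0.21 ± 0.18, SE; limma adjusted p = 0.49) and LDHA (0.53 ± 0.16, SE; limma adjusted p = 0.069) did not pass against SWOP.

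**Figure D5:**
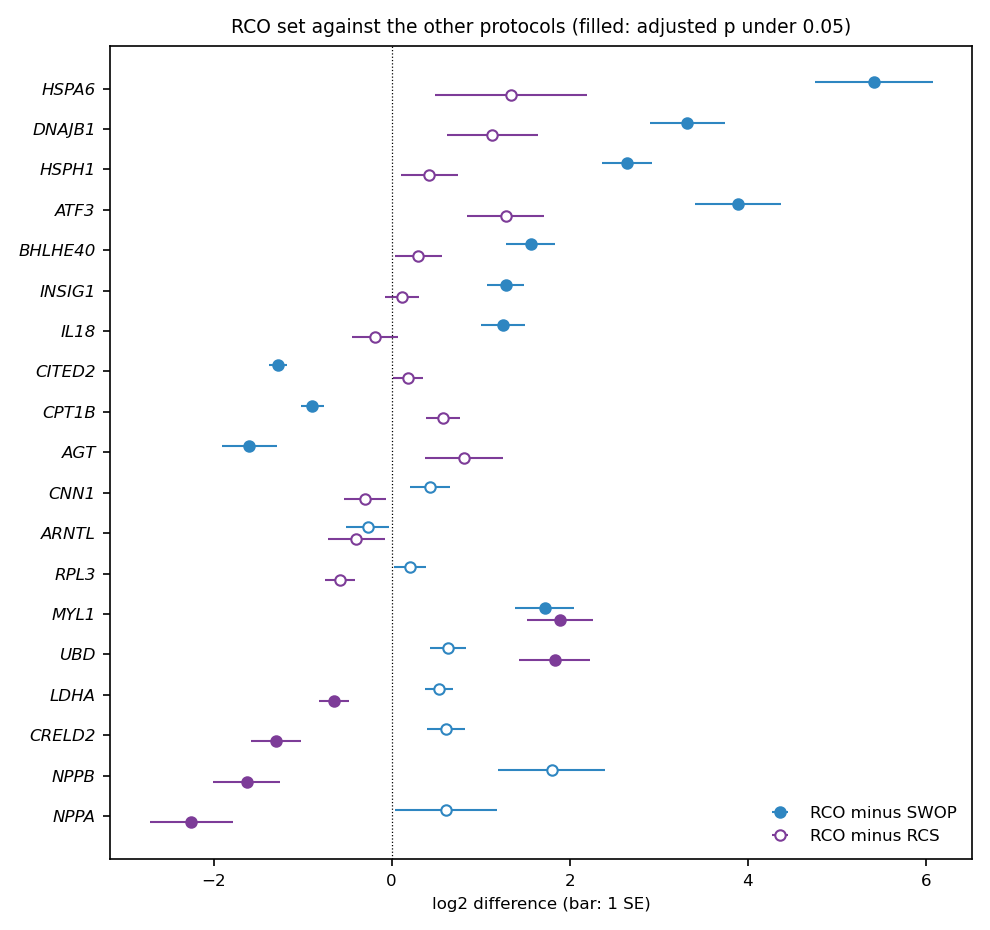
Direct differences of RCO from SWOP (blue) and from RCS (purple) for 19 genes, on the log2 scale with bars of 1 SE. Filled points passed at a limma adjusted p below 0.05. HSPA6, DNAJB1, HSPH1 and ATF3 lay at 5.42, 3.32, 2.64 and 3.89 above SWOP, and NPPA and NPPB lay at −2.25 and −1.63 against RCS.

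Against RCS these 3 heat shock genes did not pass. HSPA6 read 10.60 ± 1.57 (SD, n = 5) in RCS, a difference of 1.34 ± 0.85 (SE; limma adjusted p = 0.29), DNAJB1 differed by 1.13 ± 0.51 (SE; limma adjusted p = 0.16) and HSPH1 by 0.42 ± 0.32 (SE; limma adjusted p = 0.38). Without RCO replicate 2, the lowest RCO array, all of these passed (limma adjusted p = 0.048, 0.019 and 0.048). MYL1 was higher in RCO than in RCS by 1.89 ± 0.37 (SE; limma adjusted p = 0.026), and also than in SWOP by 1.72 ± 0.33 (SE; limma adjusted p = 0.023; 6 of 10 fits, adjusted p up to 0.073). UBD was higher in RCO than in RCS by 1.83 (limma adjusted p = 0.033). NPPA (−2.25 ± 0.47, SE), NPPB (−1.63 ± 0.38, SE) and CRELD2 (−1.30 ± 0.28, SE) were lower in RCO than in RCS, with limma adjusted p-values of 0.030, 0.040 and 0.033, and LDHA was lower by 0.65 on the log2 scale (limma adjusted p = 0.049). Each of these 6 passed in at most 5 of the 10 fits with 1 array left out (adjusted p up to 0.14). SPP1 (−1.53 ± 0.70, SE) and TNC (−1.24 ± 0.82, SE) did not pass against RCS (limma adjusted p = 0.16 and 0.32). Nor did ATF3, RGS2, INSIG1, CITED2, EFHD1, ADHFE1 and CPT1B (limma adjusted p = 0.086, 0.15, 0.70, 0.47, 0.81, 0.067 and 0.080). INSIG1, CITED2 and EFHD1 differed from RCS by 0.12, 0.18 and 0.09.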

How the data were processed

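Total RNA from the hearts of 20 pigs was hybridized, 1 animal to an array, to Affymetrix porcine arrays with 1 colour, per the labels. The values are the authors' deposited series table. They were made with RMA, and MAS5 is also named, per the submitters' processing notes, which give no version. The deposited values were taken as log2 signals from their range, because the table states no base. Control probe sets (124) were left out and 23999 tested. A platform annotation gave 1 gene symbol to 10069 probe sets, several to 198 and none to 13732. The 10069 covered 6765 genes, and the probe set with the highest mean over all arrays stood for each gene.

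Differences were tested with limma (version 3.58.1, R 4.3.3) on the 2 groups compared, with Benjamini-Hochberg adjustment over all probe sets or all genes and a threshold of 0.05. The 2 groups were fitted alone because the spread differed between groups. Single properties of the arrays were tested with exact permutation tests. Nothing says how animals were assigned to arrays, and their number, 5 in each group, limits the precision. The fit was tested on simulated data. Probe sets varied independently there, so deviations shared across a whole array were not covered. Figures were drawn with matplotlib 3.10.9.

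The 33 pathway lists, 14 cell marker lists and the genes were chosen with earlier results of these data known. Named genes were the 15 largest differences in each direction among genes that passed with a symbol and a mean above the 30th percentile, up to 4 passed members of each list with the smallest p, and 32 genes reported whatever their result. Other list members were named after their values were seen. The comparisons with SWOP and RCS were restricted to genes named in the comparison with control. No sequence was used here.

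Alternatives were all 20 arrays in 1 fit, a replicate block, quantile normalization, median centring, a filter on dim probe sets, an intensity trend, array weights, a 1.5-fold limit, averaging the probe sets of a gene, and leaving out arrays.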

Additional observations from a re-analysis of the deposited data

Results flagged for a closer look

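In 19 of 353 sets of 5 arrays that were checked, the highest or lowest array stood apart from the other 4 by more than Dixon's critical value of 0.71 allows, and chance gives about 1 in 20 such sets. Of these, 12 were in control and 7 in RCO. The cause was not tested for any of them.

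Several lay on control replicate 4. It read 9.98 for IL6, 7.91 for PTX3, 6.00 for PTGS2, 9.87 for SCARA5, 10.42 for MAVS and 6.30 for IL18, each the highest control value. Control replicate 3 was low for GPX1, at 8.34, and high for CRYAB, at 13.77. Control replicate 2 was high for PTGES3, at 8.37, and for ACAA2, at 12.13. Control replicate 5 was high for ARPC3, at 10.07, and for TIE1, at 7.78.

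RCO replicate 2 was low for DNAJB1, at 9.76, and for DDIT3, at 7.91, and high for CCL2, at 11.82. RCO replicate 3 was high for NPPB, at 12.91, and for PTGS2, at 4.79. The median of the macrophage and monocyte markers was 1.5 on RCO replicate 2, and that of the endothelial markers was −0.48 on RCO replicate 1.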

How the results depend on the processing

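Against control, 564 probe sets and 521 genes passed as fitted. They were 2571 and 1325 with all 20 arrays in 1 fit, 1699 and 949 with array weights, 370 and 292 with a 1.5-fold limit, and 152 and 196 without RCO replicates 2 and 3. Without any 1 array they lay between 55 and 1587 and between 141 and 1000. Of the 521 genes, 433 also passed after quantile normalization, 494 after centring and 166 without RCO replicates 2 and 3. Alternatives for SWOP and RCS were chosen after seeing the data. Against SWOP 924, 930, 174 and 138 genes passed with all 20 arrays, array weights, the 1.5-fold limit and without RCO replicates 2 and 3, and 24 to 707 without any 1 array. Against RCS these were 1582, 1265, 171 and 2231, with 25 to 1433 without any 1 array and 179 with the probe sets of each gene averaged.

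With the replicate block 66 probe sets and 255 genes passed against control, 224 of them among the 521, and 284 genes against SWOP and 1415 against RCS. Deviations of control and RCO arrays of the same number correlated at 0.071, −0.179, 0.155, −0.054 and 0.075, so the numbers were not taken as pairs.

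Leaving out 1 array moved the list median to −0.01 to 0.12 for antioxidant, −0.35 to −0.22 for glucocorticoid-induced, 0.12 to 0.40 for cholesterol and −0.60 to −0.29 for adipocyte genes. Without dim probe sets it was 0.10 for antioxidant, 0.13 for hypoxia, 0.32 for complement and −0.35 for neutrophil genes, and averaging probe sets gave 0.10 for antioxidant genes. Without RCO replicates 2 and 3 it was 0.11 for antioxidant, 0.25 for antigen presentation, −0.08 for sarcomere and −0.04 for smooth muscle genes. Medians also turned sign without these 2 arrays for fibroblast markers (0.55 to −0.04), cytokines (0.21 to −0.02), oxidative phosphorylation (−0.07 to 0.14), glucose (−0.01 to 0.09), skeletal muscle (−0.05 to 0.10) and Schwann cell genes (−0.05 to 0.06).

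Directions turned in genes that had not passed, and the cause was not tested. With probe sets averaged HSPA8 was −0.03, CRYAB −0.51, VEGFA −0.01 and ATP2A2 0.04. Without RCO replicates 2 and 3 HSF1 was 0.00, NOS3 −0.02, ADORA1 0.13, COL1A2 −0.33, CD14 −0.04, ACTA2 −0.19 and TAGLN −0.02, and RPL3 −0.03 against SWOP. Without 1 array the range was −0.03 to 0.11 for NOS2, −0.04 to 0.12 for NOS3, −0.18 to 0.33 for PTGS2, −0.15 to 0.07 for ADORA1, −0.03 to 0.27 for VEGFA and −0.50 to 0.33 for PTX3. Against RCS it was −0.02 to 0.22 for INSIG1 and −0.01 to 0.24 for EFHD1. The difference in array properties lay between −0.048 and 0.093 for the spike-ins, −0.542 and −0.304 for actin, −0.022 and 0.056 for GAPDH and −0.095 and −0.06 for EF1a. The number of arrays, 5 in each group, limits the precision.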
